A study of Mus musculus with 27 samples.

Results

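The 38 genes described here make or handle cholesterol and fatty acids, and were selected by symbol out of the 45070 genes of the table. They comprise 18 genes of sterol synthesis, 9 genes of fatty acid synthesis, elongation and desaturation, and 11 genes that sense sterols, store cholesterol or move it out of the cell. They were followed in chromatin-associated RNA of mouse bone marrow-derived macrophages (BMDM), cells grown from the marrow of young male wild-type C57/BL6 mice. RNA still attached to chromatin is rich in transcripts under synthesis, so it follows transcription more closely than total RNA does. There were 27 samples in 9 groups of 3, all of them kept in DMSO, the solvent vehicle, for 1 h first. One group then stayed untreated, 4 groups received lipopolysaccharide (LPS, the outer membrane glycolipid of Gram-negative bacteria, which TLR4 detects) at 10 ng/ml for 0.5, 1, 2 or 4 h, and another 4 received the cytokine interleukin-4 (IL-4) at 10 ng/ml for the same times. No source used here says whether the 3 replicates came from separate mice, so p-values measure the spread between these samples, which may be technical.

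Cells control sterol synthesis by feedback. The transcription factors SREBP1 and SREBP2, encoded by Srebf1 and Srebf2, sit in the endoplasmic reticulum bound to the escort protein Scap. When sterols are abundant, the anchor proteins Insig1 and Insig2 hold Scap back. When sterols are scarce, Scap carries the SREBPs to the Golgi, where they are cut, and the released fragments activate genes of cholesterol synthesis (mainly SREBP2) and of fatty acid synthesis (mainly SREBP1). Excess sterol activates the nuclear receptors LXR, whose targets include the exporters Abca1 and Abcg1, the LDL receptor ligase Mylip (Idol) and Srebf1. In macrophages these pathways decide between foam cell formation and cholesterol export, and oxysterols such as 25-hydroxycholesterol, made by Ch25h, act on both.

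Promoters of 5 of the genes are printed because their transcripts carry the main patterns below: Srebf2 as the factor that rose after LPS, Hmgcs1 as the sterol gene that stayed high, Fasn as a gene that the stimuli moved in opposite directions, Elovl5 for its early peak, and Abca1 for its rise and fall. Each run covers 250 bases before to 50 bases after the RefSeq start site (GRCm38.p6), 5′ to 3′ on the gene's strand. Capitals mark matches, on either strand, to a sterol regulatory element (TCACNCCAC), to a CCAAT box (CCAAT, on the other strand ATTGG) and to an E-box (CACGTG).
Srebf2 (chr15:82147019-82147318, + strand): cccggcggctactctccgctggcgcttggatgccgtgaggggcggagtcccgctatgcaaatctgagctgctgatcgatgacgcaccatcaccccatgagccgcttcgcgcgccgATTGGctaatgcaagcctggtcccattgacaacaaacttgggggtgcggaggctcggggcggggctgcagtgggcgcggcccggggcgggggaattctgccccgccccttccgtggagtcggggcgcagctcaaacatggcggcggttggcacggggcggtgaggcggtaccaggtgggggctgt
Hmgcs1 (chr13:119690101-119690400, + strand): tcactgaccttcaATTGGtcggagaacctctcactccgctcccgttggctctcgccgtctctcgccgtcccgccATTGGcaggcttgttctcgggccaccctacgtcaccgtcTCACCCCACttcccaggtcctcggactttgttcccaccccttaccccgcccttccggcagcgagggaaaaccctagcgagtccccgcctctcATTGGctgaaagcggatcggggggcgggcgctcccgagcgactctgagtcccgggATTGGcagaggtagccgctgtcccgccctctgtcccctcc
Fasn (chr11:120824498-120824797, − strand): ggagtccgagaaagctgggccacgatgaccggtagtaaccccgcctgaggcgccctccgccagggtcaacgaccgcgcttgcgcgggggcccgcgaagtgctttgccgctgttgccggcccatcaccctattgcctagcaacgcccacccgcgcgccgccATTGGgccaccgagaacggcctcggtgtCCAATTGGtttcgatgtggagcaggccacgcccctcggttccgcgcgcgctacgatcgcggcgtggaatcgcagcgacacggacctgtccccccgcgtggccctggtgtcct
Elovl5 (chr9:77917115-77917414, + strand): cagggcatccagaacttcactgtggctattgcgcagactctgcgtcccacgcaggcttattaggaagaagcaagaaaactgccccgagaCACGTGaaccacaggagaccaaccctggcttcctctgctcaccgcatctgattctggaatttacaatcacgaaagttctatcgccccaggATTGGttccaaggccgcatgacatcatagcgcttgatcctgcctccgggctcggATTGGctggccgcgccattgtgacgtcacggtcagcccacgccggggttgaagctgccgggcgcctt
Abca1 (chr4:53159846-53160145, − strand): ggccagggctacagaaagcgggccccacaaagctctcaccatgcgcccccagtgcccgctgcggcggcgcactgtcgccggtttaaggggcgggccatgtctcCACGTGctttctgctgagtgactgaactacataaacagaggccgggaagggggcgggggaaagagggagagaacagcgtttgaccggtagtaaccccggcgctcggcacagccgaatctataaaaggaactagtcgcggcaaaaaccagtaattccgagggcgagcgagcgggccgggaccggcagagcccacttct
The Hmgcs1 promoter held the element match at position -137 from its start site, beside 4 CCAAT boxes. It was the only 1 of 30 genes with a RefSeq promoter entry to hold an exact match to that pattern, against 1.44% of all genes with an entry and 1.24% of all 32851 promoters. CCAAT boxes were present in a promoter of 23 of the 30 genes (76.7%), among them 14 of 15 sterol synthesis genes, against 41.1% of all genes and 41.8% of the tested genes. E-boxes occurred in 7 of the 30 genes (23.3%), against 8.09% of all genes and 11% of the tested genes. The Fasn run held 3 CCAAT matches, of which 2 overlap, and the Elovl5 run held 2 CCAAT boxes and an E-box. The Srebf2 promoter had 1 CCAAT match and the Abca1 promoter 1 E-box. These are exact matches of letters and not mapped binding sites, and elements that differ from the patterns were not counted. Sqle, Fads1, Fdft1, Stard4, Scd2, Scd1, Fdps and Abcg1 had no entry.

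Values are read counts per gene that were scaled between samples, called normalised counts here, and sample totals ranged from 2469768 to 4058199. Of the 38 genes, 23 had an untreated mean under 50, so small differences in them were hard to see. Of the 8 macrophage markers Adgre1 ran from 4051 to 12142 and Csf1r from 427 to 3505, while the lowest were Cd68 (64 to 250) and Fcgr1 (19 to 1038), whereas the summed T cell, B cell, erythroid and adipocyte lists stayed between 0 and 7 in every sample. The neutrophil list reached 28, the dendritic cell list reached 96 (46 to 96 at LPS 1 h), and the summed macrophage list was 10027 to 11141 in untreated cells and 12709 to 19679 at LPS 4 h. Replicate 1 stood apart. The SD of log2 ratios between replicates of a group was 0.37 to 0.496 for pairs with replicate 1 and 0.138 to 0.287 for replicates 2 and 3. The summed stromal list was 89 to 212 in the samples numbered 1 and 27 to 73 in the others. The part of these differences in the results was not tested, and in such bulk samples fewer cells of a type and less RNA per cell cannot be told apart. The median of all 13901 tested genes was itself lower after LPS, by -0.245 to -0.305 on the log2 scale. It lay between -0.014 and -0.061 after median-of-ratios rescaling and between -0.73 and -0.912 with equal sample totals. No gene called at a single time point changed sign under either, but the largest change over the LPS course did for some genes, because another time became the largest: Abca1 and Acaca after median-of-ratios rescaling, and Cyp51, Mvd, Elovl5, Srebf1, Scap and Stard4 with equal totals. Every log2 change below is from log2(value + 1), its ± is a standard error with n = 3 per group, and adjusted p-values are those of limma over all tested genes. Values in every sample are given in the order of replicates 1, 2 and 3. Groups without overlap with the untreated samples were common among all tested genes. Over the LPS times 23.1% to 28.4% of tested genes lay wholly above untreated and 38.8% to 41.6% wholly below. Over the IL-4 times these shares were 13.0% to 20.5% and 15.2% to 19.2%.

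LPS moved most of the set, as it moved most tested genes, and IL-4 moved a smaller share. Over the LPS course 33 of 37 tested genes passed (89.2%), close to the 87.6% of all tested genes. By the direction of the largest change 14 of them were higher and 19 lower (32.9% and 54.7% of all tested genes), or 8 and 27 with equal totals. Over the IL-4 course 19 of 37 passed (51.4%), against 40.3% of all tested genes, 9 of them higher and 10 lower (19.4% and 20.9%). Scd1, the classic stearoyl-CoA desaturase of liver and fat, was between 0 and 3 in every sample and was not tested. Class medians after LPS are given with the SD of the medians of the single replicates. The fatty acid genes were mostly lower, from -0.47 (SD 0.146) at 0.5 h to -1.61 (SD 0.69) at 4 h. The sterol genes had a median of -0.12 (SD 0.105) at 0.5 h and 0.55 (SD 0.487) at 4 h, where 15 of 18 lay above 0. The late sterol median thus differed widely between replicates. At LPS 4 h the median of all tested genes was -0.258, and -0.836 with equal totals. Regulators and efflux genes had a median of 0.58 (SD 0.109) at 0.5 h and -0.30 (SD 0.157) at 4 h. After IL-4 no class median was beyond -0.23 or 0.46, both of them for sterol synthesis, at 0.5 h and 4 h.

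At LPS 0.5 h 19 of 37 genes passed (background 53.9%), 11 of them higher and 8 lower (19.6% and 34.4%). At 1 h 8 were higher and 11 lower (24.8% and 39.0%), at 2 h the numbers were 8 and 15 (26.9% and 39.0%), and 4 h of LPS gave 9 and 13 (25.9% and 37.6%). With IL-4 the counts were 1 higher and 6 lower at 0.5 h (8.15% and 8.14%), while at 1 h they were 3 and 6 (11.1% and 9.83%). At 2 h there were 5 and 6 (14.3% and 13.2%), then 8 and 4 after 4 h (13.4% and 12.5%). The LPS split depended on the scaling: with equal totals the successive times had 8 higher and 15 lower, 3 and 17, 2 and 22, and 7 and 18. After median-of-ratios rescaling the numbers became 11 and 10 (1 h) and 11 and 9 (4 h). The counts also depended on replicates. At LPS 0.5 h 13 genes were lower without replicate 1, 7 were higher without replicate 2 or without replicate 3, and 5 were lower without replicate 2. At LPS 2 h 5 were higher without replicate 2 or 3. At IL-4 0.5 h 1 gene was lower without replicate 2 or 3, and 2 were higher in the fit blocked by replicate number. At IL-4 1 h 1 was higher and 2 lower without replicate 2 or 3. At IL-4 2 h 3 were higher without replicate 2 or 3, and the lower count was 3 without replicate 2 and 2 without replicate 3. At IL-4 4 h 3 were higher and 2 lower without replicate 2, and 4 and 1 without replicate 3. For the whole courses, LPS gave 8 higher and 12 lower without replicate 3, and IL-4 gave 4 and 2 without replicate 2 and 3 and 2 without replicate 3, against 9 and 10 with all samples.

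**Figure D1:**
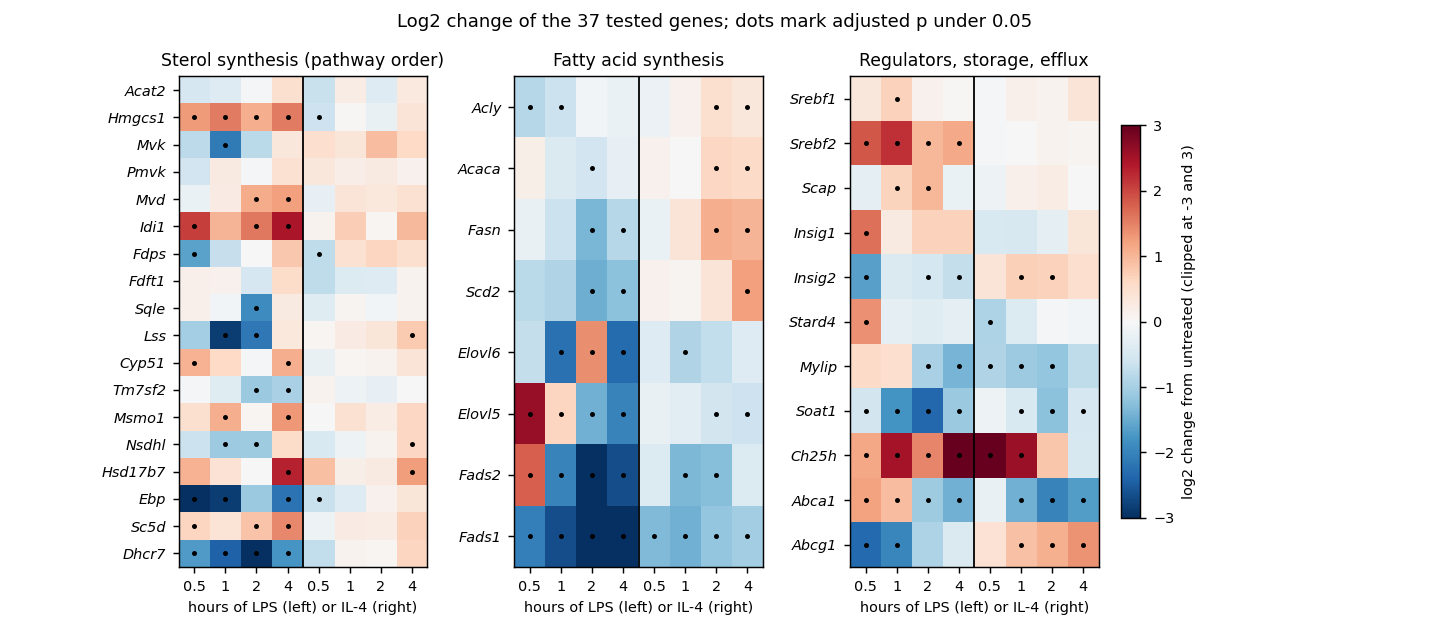
Colours show the log2 change from untreated of the 37 tested genes (rows, in 3 panels by class) at the 4 times of LPS (left 4 columns) and IL-4 (right 4 columns), with the scale clipped at -3 and 3. Dots mark adjusted p under 0.05: the fatty acid panel is mostly blue after LPS, whereas IL-4 left most sterol genes without a dot.

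Srebf2, which encodes the main activator of cholesterol synthesis (chr15:82147269-82204960), rose at every LPS time and was called at no IL-4 time. Untreated cells had 230, 222 and 230 normalised counts, against 758, 999 and 750 at LPS 0.5 h and 926, 1156 and 1042 at 1 h. All LPS samples lay above all untreated ones, and the level then came down to 438, 505 and 431 (2 h) and 425, 586 and 496 (4 h). The rise was 2.18 ± 0.14 at 1 h (4.55-fold, adjusted p = 3.54e-09) and still 1.13 ± 0.14 at 4 h (adjusted p = 4.32e-06), and 4 h was below 1 h (-1.06 ± 0.14, adjusted p = 1.27e-05). In the IL-4 groups values ran from 178 to 286, around the untreated values, and the course test gave adjusted p = 0.837. At 1 h LPS exceeded IL-4 by 2.16 ± 0.15 (adjusted p = 1.13e-11). With equal sample totals the difference between the stimuli at 2 h did not pass.

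Srebf1, the SREBP gene tied to fatty acid synthesis and itself an LXR target (chr11:60199084-60222581), moved less. It went from 118, 133 and 150 in untreated cells to 159, 237 and 264 at LPS 1 h. The groups did not overlap, and the rise of 0.69 ± 0.18 (adjusted p = 0.00372) was followed by 117, 142 and 152 at 4 h. It did not pass at 1 h without replicate 2 (adjusted p = 0.0919) or with equal totals. At 0.5 h LPS gave 0.34 ± 0.18 (adjusted p = 0.122, blocked 0.0196). With IL-4 the largest change was 0.38 ± 0.15 at 4 h (adjusted p = 0.089, blocked 0.0266). Rai1, on the other strand, overlaps 0.5% of Srebf1 and had a change of -0.84 at LPS 1 h.

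Scap, the escort protein, was first called at LPS 1 h, as Srebf1 was. Untreated values of 73, 82 and 76 became 136, 112 and 121 at LPS 1 h and 179, 142 and 146 at 2 h. Both groups were above every untreated sample, with rises of 0.67 ± 0.19 (adjusted p = 0.00715) and 1.00 ± 0.19 (adjusted p = 0.000304), and neither passed with equal totals. At 4 h the values were 89, 68 and 50, which was lower than at 1 h (-0.86 ± 0.19, adjusted p = 0.00154, 0.062 without replicate 3). IL-4 values of 64 to 97 gave no call.

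The Insig genes, which encode the sterol-responsive brakes, moved apart. Insig1, itself a classic SREBP target (chr5:28071412-28078662), went from 27, 57 and 36 to 107, 120 and 140 at LPS 0.5 h, and every sample of that group was higher (1.65 ± 0.31, adjusted p = 0.000424). Its course test did not pass without replicate 3 (adjusted p = 0.0602). By 2 h and 4 h the changes were 0.68 ± 0.31 and 0.69 ± 0.31 (adjusted p = 0.069 and 0.0663, blocked 0.012 and 0.0112). Gm35223, annotated on the other strand, covers the whole of Insig1 and went from a mean of 45.3 to 130.3, so without strand information their reads cannot be told apart. Insig2 went the other way, from 62, 67 and 80 to 23, 20 and 22 at LPS 0.5 h, a fall of -1.63 ± 0.22 (adjusted p = 1.42e-05) with no overlap. It was still below untreated at 4 h (-0.71 ± 0.22, adjusted p = 0.00982), a call lost without replicate 2 (adjusted p = 0.0573) or 3 (0.0697) and after median-of-ratios rescaling.

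IL-4 moved Insig2 up, to 111, 115 and 116 at 1 h and 94, 128 and 118 at 2 h, above all untreated samples. The rises were 0.71 ± 0.19 (adjusted p = 0.0138) and 0.69 ± 0.19 (adjusted p = 0.013). Neither passed without replicate 2 (adjusted p = 0.194 and 0.222) or without replicate 3 (0.09 and 0.085), and at 4 h the change was 0.51 ± 0.19 (adjusted p = 0.0608, blocked 0.00975). The stimuli differed for Insig2 at all 4 times, by -2.02 ± 0.20 at 0.5 h and -1.21 ± 0.20 at 4 h (adjusted p = 1.24e-08 and 1.22e-05). Insig1 was 21 to 63 across the IL-4 samples and its course gave adjusted p = 0.141 (blocked 0.0153). Stard4, a carrier that moves cholesterol between membranes, rose from 23, 26 and 22 to 56, 70 and 64 at LPS 0.5 h and had 23, 15 and 20 at 1 h. The rise was 1.38 ± 0.25 (adjusted p = 0.000271). At IL-4 0.5 h Stard4 had 10, 12 and 14, a fall of -0.93 ± 0.28 (adjusted p = 0.0333) that did not pass without replicate 2 (0.345) or 3 (0.118).

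**Figure D2:**
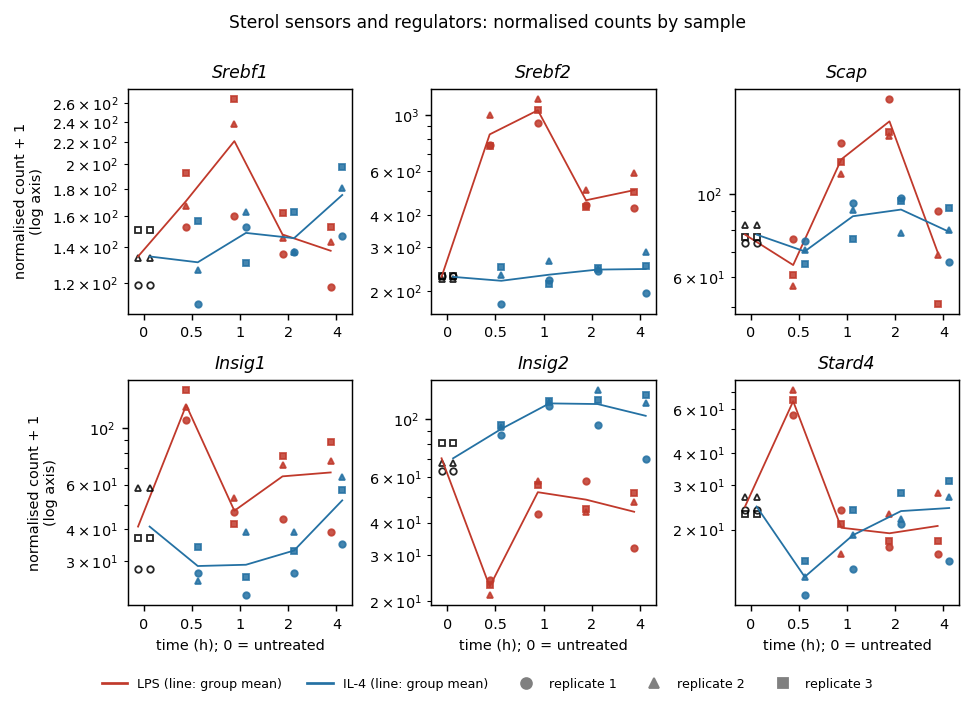
Normalised counts plus 1 (log axis) of 6 regulators in each sample against time, with untreated samples at 0 in open symbols, LPS in red and IL-4 in blue, symbols by replicate and lines through group means. Srebf2 separates the stimuli throughout, and Insig1 and Insig2 go in opposite directions at LPS 0.5 h.

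In the sterol pathway LPS did not move the genes together. Of the 18 genes 15 passed over the course (background 87.6%), 7 with their largest change upward and 8 downward (32.9% and 54.7%), and Acat2, Fdft1 and Pmvk did not pass (Fdft1 adjusted p = 0.062, blocked 0.017). Those 3 ranged over all samples from 1 to 13, from 19 to 115 and from 2 to 12. Ctsb, on the other strand over 2.2% of Fdft1, had an untreated mean of 1873.7 and a change of 0.35 at LPS 4 h. Without strand information, reads of that overlap cannot be told apart. At 0.5 h Hmgcs1, Cyp51, Idi1 and Sc5d were higher and Dhcr7, Ebp and Fdps lower, and of these Hmgcs1 and Dhcr7 were called at every LPS time. The Sc5d call at 0.5 h was lost without replicate 2 or 3 and with equal totals. Lss and Nsdhl were lower at 1 h and 2 h, the calls of Nsdhl being lost after median-of-ratios rescaling, and neither was called at 4 h. At 4 h 7 genes were higher than untreated (Hmgcs1, Mvd, Idi1, Cyp51, Msmo1, Hsd17b7 and Sc5d) and 3 were lower, beside 25.9% and 37.6% of all tested genes.

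Hmgcs1, which joins acetoacetyl-CoA and acetyl-CoA at the entry of the pathway (chr13:119690351-119708260), was the steadiest riser. From 37, 37 and 41 in untreated cells LPS took it to 76, 101 and 111 within 0.5 h and to 107, 123 and 114 by 1 h. It then had 71, 120 and 66 (2 h) and 81, 148 and 125 (4 h). No LPS sample overlapped the untreated group. The rises were 1.29, 1.56, 1.09 and 1.56, each ± 0.24, with adjusted p between 4.22e-05 and 0.00103; the one at 2 h did not pass with equal totals. Its promoter, printed above, is the one with the element match, and whether that match bears on the rise was not tested.

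Idi1, isopentenyl diphosphate isomerase, was barely detected in untreated cells, with 0, 3 and 3 counts, and had 8, 17 and 15 at LPS 4 h. The change of 2.45 ± 0.61 (adjusted p = 0.0024) depends in size on the 1 added to each value. It also passed at 0.5 h (2.07 ± 0.61, adjusted p = 0.0092, but 0.0551 without replicate 3) and at 2 h (1.57 ± 0.61, adjusted p = 0.0323, but 0.156 and 0.072 without replicates 2 and 3). With equal totals the call at 2 h was lost. At 1 h the values were 2, 4 and 8 (adjusted p = 0.15, blocked 0.0237). Mvd, the decarboxylase before it, rose from 13, 14 and 13 to 26, 40 and 34 at LPS 4 h (1.24 ± 0.29, adjusted p = 0.00152). Gm51557, on the other strand over 32.7% of Mvd, had means of 5.0 in untreated cells and 11.3 at LPS 4 h. Reads of that pair cannot be told apart either.

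Cyp51, the lanosterol demethylase (chr5:4080674-4104697), had 61, 53 and 70 in untreated cells and 105, 142 and 134 at LPS 0.5 h. It returned to 34, 79 and 77 at 2 h and was 90, 163 and 149 at 4 h, so both its high groups lay above untreated. The rises of 1.04 ± 0.30 (adjusted p = 0.009) and 1.08 ± 0.30 (adjusted p = 0.00561) did not pass without replicate 2 (0.11 and 0.103), without replicate 3 (0.0694 and 0.0602) or with equal totals. At 1 h the change was 0.59 ± 0.30 (adjusted p = 0.0966, blocked 0.0168). Msmo1, the methyl oxidase that follows, went from 28, 50 and 36 to 66, 86 and 88 at 1 h and 58, 118 and 114 at 4 h. Neither high group overlapped the untreated one, and the changes were 1.08 ± 0.34 (adjusted p = 0.0127) and 1.29 ± 0.34 (adjusted p = 0.00407), both lost without replicate 3 (0.126 and 0.0879) and with equal totals. Hsd17b7 rose from 2, 5 and 7 to 15, 29 and 36 at 4 h (2.32 ± 0.49, adjusted p = 0.000708), and Sc5d from 14, 11 and 11 to 25, 38 and 42 (1.45 ± 0.26, adjusted p = 0.000163).

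The genes that fell did so at other times. Sqle, the squalene epoxidase and a rate-controlling step, had 28, 21 and 23 in untreated cells, 4, 11 and 4 at LPS 2 h and 18, 37 and 36 at 4 h. Only the 2 h group passed (-1.89 ± 0.35, adjusted p = 0.000232), and at 4 h the change was 0.27 ± 0.35. Lss, lanosterol synthase (chr10:76531605-76557139), dropped from 39, 38 and 41 to 1, 7 and 10 at 1 h and had 26, 85 and 53 at 4 h. The fall at 1 h was -2.85 ± 0.60 (adjusted p = 0.000701) and 4 h exceeded 1 h by 3.16 ± 0.60 (adjusted p = 0.000373). 4930483K19Rik, on the other strand over 44.1% of Lss, went from 21.0 to 2.7 at 1 h, so reads of the pair cannot be told apart.

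Dhcr7, which makes cholesterol from 7-dehydrocholesterol (chr7:143823167-143848410), was low at every LPS time. Untreated values of 16, 23 and 29 stood against 5, 5 and 9 at 0.5 h, 3, 3 and 4 (1 h), 1, 3 and 0 (2 h) and 3, 6 and 10 (4 h), with no overlap. The change was -3.53 ± 0.48 at 2 h (adjusted p = 1.11e-05), where all samples were at 3 or less and its size depends on the added 1, and -1.77 ± 0.48 at 4 h (adjusted p = 0.00481). At 0.5 h it was -1.70 ± 0.48 (adjusted p = 0.0079, but 0.0763 without replicate 2). Ebp, the sterol isomerase, had 20, 15 and 16 in untreated cells and 0, 2 and 2 at LPS 0.5 h (-3.10 ± 0.59, adjusted p = 0.000392), and it was lower at 1 h and 4 h too. At 2 h, with 7, 7 and 8, it did not pass (adjusted p = 0.111, blocked 0.0482).

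Several pathway genes were higher late than early in the LPS course. Between 1 h and 4 h 7 sterol genes rose and none fell: Fdps, Hsd17b7, Lss, Mvd, Mvk, Nsdhl and Sc5d. For the whole set that comparison, which leaves out the untreated samples, gave 11 higher and 7 lower genes (background 26.4% and 24.7%), but 4 and 3 higher without replicates 2 and 3. Nsdhl, a sterol dehydrogenase, illustrates the course: 42, 43 and 53 in untreated cells, 15, 26 and 23 at 1 h and 44, 85 and 82 at 4 h. The later groups differed by 1.65 ± 0.39 (adjusted p = 0.00242, 0.054 without replicate 3). Mvk, mevalonate kinase, went from 7, 30 and 14 in untreated cells to 2, 4 and 2 at 1 h and 16, 22 and 18 at 4 h, with a change from 1 h of 2.46 ± 0.51 (adjusted p = 0.000817). Fdps fell at 0.5 h (-1.61 ± 0.55, adjusted p = 0.022, 0.221 without replicate 3), and Tm7sf2 fell at 2 h (-1.12 ± 0.39, adjusted p = 0.0204), a call that was lost without any 1 of the replicates (0.0796, 0.0744 and 0.0694).

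For sterol synthesis the IL-4 course test called 6 genes out of 18 (33.3%, background 40.3%). These were Dhcr7, Ebp, Fdps, Hmgcs1, Hsd17b7 and Nsdhl, and each lost that call without replicate 2 and also without replicate 3. Of the 18 genes 3 were lower at 0.5 h (Hmgcs1, Fdps and Ebp, 16.7%, background 8.14%). None passed at 1 h or 2 h, where 21.0% and 27.6% of all tested genes did. Another 3 were higher at 4 h (Lss, Nsdhl and Hsd17b7, 16.7%, background 13.4%). Under the replicate block Fdft1 and Dhcr7 also passed as lower at 0.5 h (blocked 0.00908 and 0.0302), Fdps and Mvk as higher at 2 h (0.0124 and 0.0426) and Dhcr7 as higher at 4 h (0.0394). Ctsb, which overlaps Fdft1, had a change of -0.36 at IL-4 0.5 h. At 4 h 17 of 18 changes were above 0, with a median of 0.46 (0.43 with genes at 3 counts or less set to that floor), against 0.017 for all tested genes. The medians of the single replicates had an SD of 0.274. Nsdhl had 53, 79 and 83 at IL-4 4 h, of which only the value of replicate 1 touched the untreated range (0.61 ± 0.20, adjusted p = 0.0423, 0.283 and 0.262 without replicates 2 and 3). Lss had 51, 80 and 79, all above untreated (0.79 ± 0.22, adjusted p = 0.0162, 0.164 and 0.219 without replicates 2 and 3). Hsd17b7 had 15, 9 and 11 (1.25 ± 0.33, adjusted p = 0.0129, 0.137 and 0.0835 without replicates 1 and 2). Hmgcs1 had 28, 20 and 26 at 0.5 h, all below the untreated samples (-0.63 ± 0.18, adjusted p = 0.0287), which did not pass without replicate 2 (0.242) or 3 (0.225). The falls of Fdps (-0.75 ± 0.24, adjusted p = 0.0491) and Ebp (-0.67 ± 0.21, adjusted p = 0.0418) at that time did not pass without replicate 2 (0.207 and 0.31) or 3 (0.368 and 0.152) either, nor that of Ebp without replicate 1 (0.153). Msmo1 at 4 h gave 0.62 ± 0.23 (adjusted p = 0.0638, blocked 0.0114). Sqle, Idi1 and Cyp51 were at 12 to 31, 1 to 5 and 47 to 93 in IL-4 samples, without a call at any time. From 1 h to 4 h of IL-4 3 sterol genes were higher, and over the set 6 genes were higher and 1 lower (background 8.6% and 9.3%), with 11 higher under the block and 0 without replicate 2 or 3.

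**Figure D3:**
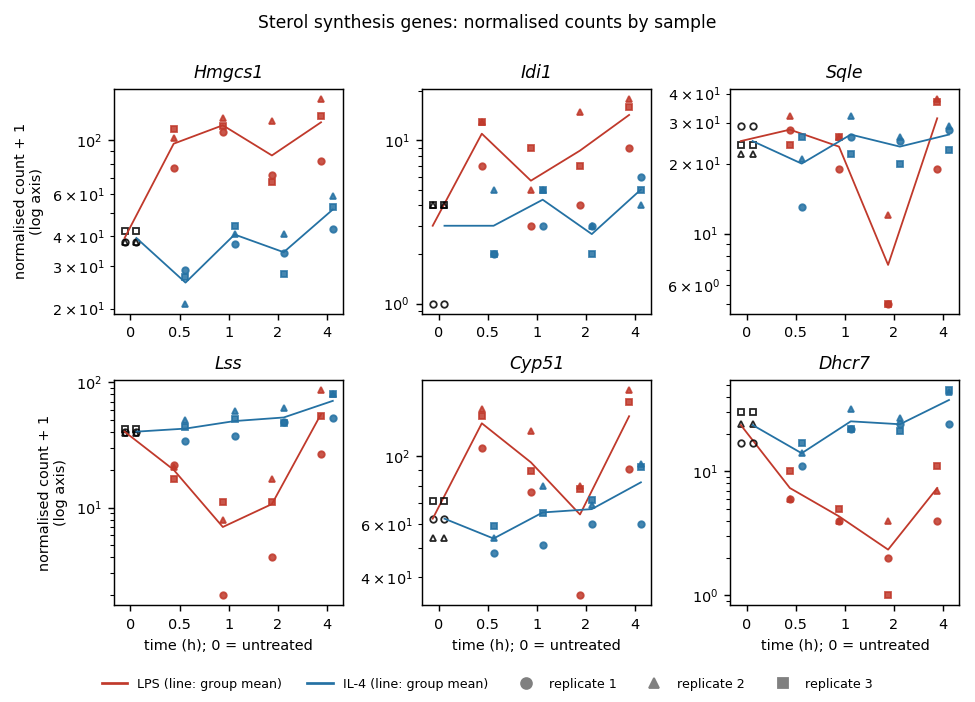
Normalised counts plus 1 (log axis) of 6 sterol synthesis genes in each sample against time, drawn as for the regulators. Hmgcs1 stays above its untreated values after LPS, Lss dips at 1 h and comes back by 4 h, and Dhcr7 stays low.

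Fatty acid genes separated the stimuli by branch. The chain-building enzymes Acly, Acaca and Fasn rose with IL-4 and were lower or not called with LPS, while Fads1 fell at every LPS and IL-4 time and Fads2 and Elovl5 rose at LPS 0.5 h before they fell. Of the 8 tested genes 7 passed over each course, beside 87.6% of all tested genes for LPS and 40.3% for IL-4 (Scd2 did not over LPS, adjusted p = 0.0522, and Elovl6 not over IL-4, adjusted p = 0.109). Without replicate 3 the LPS course of Fasn did not pass (adjusted p = 0.114), nor those of Acaca without replicate 2 (0.108) or 3 (0.25).

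Fasn, the fatty acid synthase (chr11:120805958-120824547), had 42, 47 and 42 in untreated cells. IL-4 took it to 68, 59 and 48 (1 h), 115, 86 and 83 (2 h) and 84, 103 and 81 (4 h), all above untreated. The rises at 2 h and 4 h were 1.09 ± 0.16 (adjusted p = 0.000151) and 1.01 ± 0.16 (adjusted p = 0.000301). LPS took it to 18, 15 and 16 at 2 h, all below untreated, a fall of -1.37 ± 0.30 (adjusted p = 0.00102). At LPS 4 h it had 13, 38 and 26 (-0.86 ± 0.30, adjusted p = 0.0217), a call lost without replicate 1 (0.102) or 3 (0.116) and after median-of-ratios rescaling. At 2 h the stimuli differed by -2.45 ± 0.25 (LPS minus IL-4, 5.47-fold, adjusted p = 8.14e-09).

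Acaca, whose acetyl-CoA carboxylase supplies malonyl-CoA to Fasn, followed the same order with smaller steps. Untreated values were 154, 210 and 205, against 301, 290 and 284 at IL-4 2 h and 301, 270 and 269 at 4 h. Those groups were wholly above untreated, by 0.63 ± 0.11 (adjusted p = 0.000496) and 0.57 ± 0.11 (adjusted p = 0.0012). At LPS 2 h it had 102, 142 and 140, all lower (-0.57 ± 0.22, adjusted p = 0.0317), though not past the threshold without replicate 2 (0.118) or 3 (0.146) or after median-of-ratios rescaling, and the stimuli differed by -1.20 ± 0.18 (adjusted p = 2.01e-06). Acly, which makes cytosolic acetyl-CoA from citrate, had 156, 153 and 173 in untreated cells, 99, 90 and 78 at LPS 0.5 h and 224, 216 and 236 at IL-4 2 h. The LPS fall was -0.85 ± 0.15 (adjusted p = 0.000227) and the IL-4 rise 0.49 ± 0.11 (adjusted p = 0.00421, 0.0596 without replicate 2), and neither group overlapped untreated. By LPS 2 h and 4 h Acly was back at 124 to 180, without a call.

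Fads1, the delta-5 desaturase (chr19:10182888-10196874, + strand), fell furthest of the fatty acid genes. From 72, 94 and 113 it went to 25, 14 and 28 at LPS 0.5 h, 12, 19 and 11 at 1 h, 4, 5 and 4 by 2 h and finally 1, 6 and 2. All LPS samples were below all untreated ones, and the fall reached -4.73 ± 0.41 at 4 h (26.6-fold, adjusted p = 6.59e-08). At such low counts the size of the fall depends on the added 1. IL-4 brought it to 31, 34 and 44 at 0.5 h and 34, 30 and 35 at 1 h, also without overlap, and it stayed at 32 to 60 later. The change at 1 h was -1.45 ± 0.23 (adjusted p = 0.000352), and those at 2 h and 4 h did not pass without replicate 3 (adjusted p = 0.0712 and 0.116). LPS was below IL-4 from 1 h on, by -3.68 ± 0.34 at 4 h (adjusted p = 1.45e-09).

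Fads2, the delta-6 desaturase encoded nearby on the other strand (chr19:10062765-10101503), differed from Fads1 at the first LPS time. It rose from 7, 11 and 20 to 58, 42 and 32 at 0.5 h, where no sample overlapped the untreated ones, and then had 1, 3 and 3 (1 h), 0, 1 and 1 (2 h) and 1, 1 and 1 (4 h). The early change was 1.79 ± 0.43 (adjusted p = 0.00247, 0.0512 without replicate 2). The later ones were -1.99, -2.99 and -2.66 (± 0.43, adjusted p from 1.77e-05 to 0.000849), with sizes that depend on the added 1. With IL-4 Fads2 had 3, 5 and 4 at 1 h (-1.36 ± 0.33, adjusted p = 0.00858) and 3, 5 and 5 at 2 h (-1.27 ± 0.33, adjusted p = 0.0103), calls lost without replicate 2 (0.0986 and 0.0998) or 3 (0.172 and 0.143).

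The elongase genes peaked and then fell within the LPS course. Elovl5, which extends polyunsaturated chains (chr9:77917365-77984519), went from 68, 90 and 87 to 510, 520 and 479 at LPS 0.5 h, a rise of 2.62 ± 0.26 (6.14-fold, adjusted p = 7.09e-07). It was 126, 125 and 133 (1 h), then 32, 30 and 26 (2 h) and 12, 34 and 18 (4 h), so it passed from above all untreated samples to below all of them. The changes at 2 h and 4 h were -1.44 ± 0.26 (adjusted p = 0.000157) and -2.0 ± 0.26 (adjusted p = 6.05e-06). That at 1 h, 0.65 ± 0.26 (adjusted p = 0.0379), did not pass without replicate 3 (0.175) or with equal totals. Gm34771, on the other strand over 7.9% of Elovl5, had means of 4.0 and 21.3 in untreated cells and at LPS 0.5 h. With IL-4 Elovl5 fell to 62, 51 and 45 at 4 h (-0.62 ± 0.17, adjusted p = 0.0152, 0.204 without replicate 2 or 3).

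Elovl6, which extends saturated and monounsaturated chains (chr3:129532386-129638495), peaked later. It had 46, 85 and 88 in untreated cells, 32, 6 and 14 at LPS 1 h, 155, 146 and 285 (2 h) and 10, 15 and 16 (4 h). Each of those groups stood clear of untreated, first lower (-2.23 ± 0.47, adjusted p = 0.000649), then higher (1.40 ± 0.47, adjusted p = 0.0156), then lower again (-2.30 ± 0.47, adjusted p = 0.000473). The 2 h rise did not pass without replicate 3 (0.136) or with equal totals. At 2 h LPS exceeded IL-4 by 2.13 ± 0.41 (adjusted p = 6.7e-05), and at 4 h it was below by -1.93 ± 0.41 (adjusted p = 0.000212). IL-4 had 39, 29 and 44 at 1 h (-0.91 ± 0.29, adjusted p = 0.0365, 0.351 and 0.234 without replicates 2 and 3), and at 2 h gave -0.73 ± 0.29 (adjusted p = 0.0749, blocked 0.0482). Scd2, a stearoyl-CoA desaturase of the same family as Scd1 (chr19:44293676-44306864), had 7, 5 and 7 in untreated cells, 2, 2 and 1 at LPS 2 h and 9, 23 and 20 at IL-4 4 h. The IL-4 rise was 1.24 ± 0.34 (adjusted p = 0.0154, 0.239 and 0.179 without replicates 2 and 3). The LPS change at 4 h was -1.23 ± 0.45 (adjusted p = 0.0254, 0.118 and 0.16 without replicates 1 and 3, lost after median-of-ratios rescaling), and the stimuli differed at 4 h by -2.46 ± 0.41 (adjusted p = 1.24e-05).

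**Figure D4:**
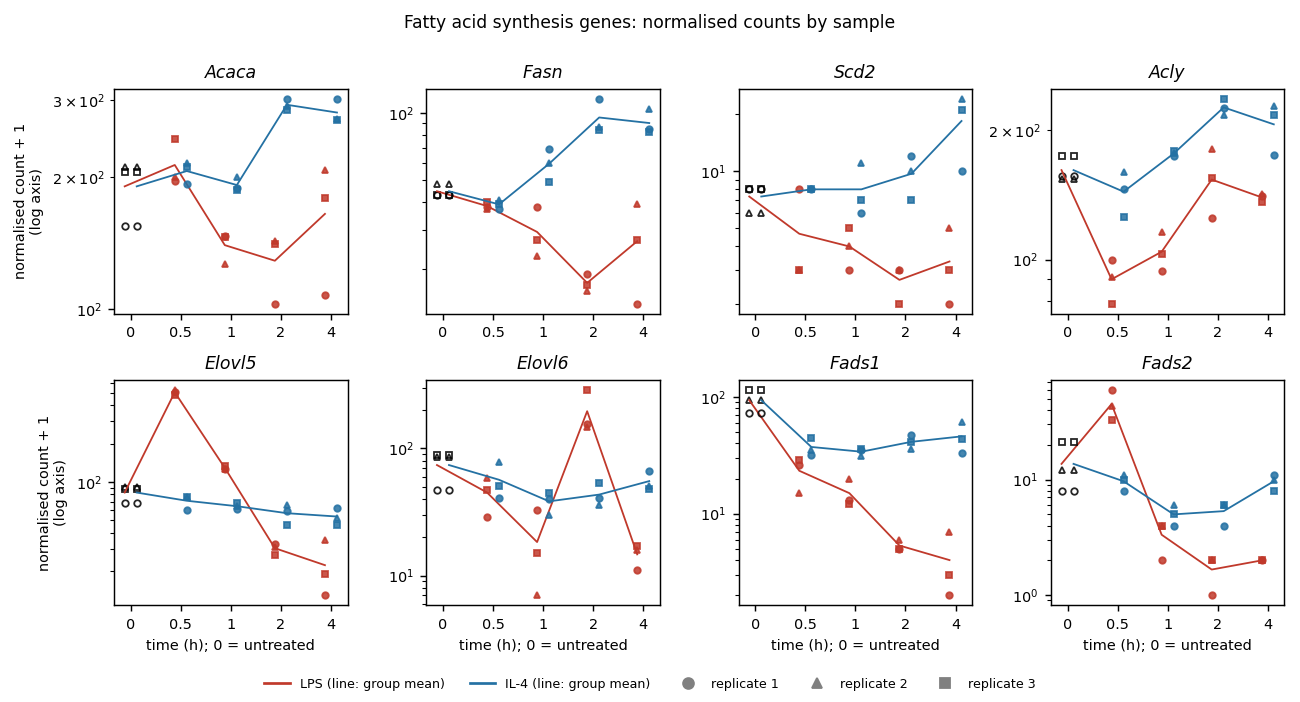
Normalised counts plus 1 (log axis) of the 8 tested fatty acid genes in each sample against time, drawn as for the regulators. Fasn and Acaca diverge between stimuli at 2 h, Elovl5 peaks at LPS 0.5 h and Elovl6 at 2 h, and Fads1 falls at every LPS time.

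The cholesterol exporters split. Abca1, which loads cholesterol onto lipid-poor apolipoprotein A-I (chr4:53030789-53159895), had 2734, 1967 and 1984 in untreated cells and 6779, 4289 and 4420 at LPS 0.5 h. It was 5139, 3831 and 3656 by 1 h, then 1031, 995 and 1156 (2 h) and 804, 754 and 867 (4 h). No LPS group overlapped the untreated one: the first pair was above (1.20 ± 0.18 and 0.92 ± 0.18, adjusted p = 5.41e-05 and 0.000421) and the second pair below (-1.06 ± 0.18 and -1.45 ± 0.18, adjusted p = 0.000105 and 4.34e-06). The 1 h rise did not pass with equal totals. From 1 h to 4 h it fell by 2.36 on the log2 scale (adjusted p = 2.94e-08).

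With IL-4 Abca1 had no early rise. It had 2475, 1484 and 1799 at 0.5 h, 1214, 701 and 624 (1 h), 822, 482 and 420 (2 h) and 1032, 584 and 548 (4 h). From 1 h on all samples were below all untreated ones, and in each group replicate 1 was the highest. The falls were -1.44 ± 0.32 (adjusted p = 0.00479), -2.0 ± 0.32 (4.0-fold, adjusted p = 0.000331) and -1.67 ± 0.32 (adjusted p = 0.00149). Those at 1 h and 4 h did not pass without replicate 2 (0.109 and 0.0601) or 3 (0.0997 and 0.0501). At 1 h LPS exceeded IL-4 by 2.36 ± 0.27 (adjusted p = 6.42e-08), whereas at 4 h the difference was 0.22 ± 0.27 (adjusted p = 0.479).

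Abcg1, which passes cholesterol to HDL (chr17:31057694-31117984), did the reverse early on. Untreated values were 194, 177 and 172, and LPS gave 71, 19 and 32 at 0.5 h, 114, 32 and 26 (1 h), 211, 53 and 74 (2 h) and 228, 99 and 105 (4 h). Replicate 1 was highest in every LPS group, and at 2 h and 4 h it lay above the untreated range while the other replicates lay below it. The falls at 0.5 h and 1 h were -2.33 ± 0.58 (adjusted p = 0.00336, 0.0642 without replicate 2) and -1.96 ± 0.58 (adjusted p = 0.00838, 0.0743 and 0.13 without replicates 2 and 3), and at 2 h the change was -0.94 ± 0.58 (adjusted p = 0.169, blocked 0.00756). IL-4 raised Abcg1 to 436, 304 and 284 (1 h), 494, 324 and 340 (2 h) and 533, 387 and 482 (4 h), all above untreated. The rises were 0.89 ± 0.25 (adjusted p = 0.0198), 1.06 ± 0.25 (adjusted p = 0.0053) and 1.35 ± 0.25 (2.55-fold, adjusted p = 0.00108). Those at 1 h and 2 h did not pass without replicate 2 (0.17 and 0.0717) or 3 (0.11 and 0.0585), and at 0.5 h the change was 0.43 ± 0.25 (adjusted p = 0.296, blocked 0.0361). The stimuli differed at all 4 times, by -2.84 ± 0.50 at 1 h (adjusted p = 2.78e-05) and -1.79 ± 0.50 at 4 h (adjusted p = 0.00303, 0.0724 without replicate 3).

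Soat1, which esterifies cholesterol for storage in droplets (chr1:156428108-156474328), fell with both stimuli. From 786, 735 and 689 it went to 485, 522 and 498 at LPS 0.5 h, 176, 249 and 213 (1 h), 104, 195 and 144 (2 h) and 243, 397 and 409 (4 h). With IL-4 it had 314, 348 and 282 at 2 h and 525, 554 and 480 at 4 h, again below all untreated samples. At 2 h the changes were -2.36 ± 0.22 for LPS (adjusted p = 1.43e-07) and -1.23 ± 0.10 for IL-4 (adjusted p = 5.58e-07), and the LPS fall was larger by -1.13 ± 0.18 (adjusted p = 8.99e-06). The fall at LPS 0.5 h, -0.55 ± 0.22 (adjusted p = 0.0438), did not pass without replicate 2 (0.112) or 3 (0.171) or after median-of-ratios rescaling.

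Mylip, the ubiquitin ligase that degrades the LDL receptor, had 280, 161 and 197 in untreated cells. At LPS 2 h it had 94, 116 and 106 and at 4 h 131, 58 and 62, below untreated in all samples (-0.97 ± 0.27 and -1.40 ± 0.27, adjusted p = 0.00541 and 0.000338). Before that, values of 397, 281 and 267 at 0.5 h and 323, 310 and 256 at 1 h did not pass (0.58 ± 0.27 and 0.51 ± 0.27, adjusted p = 0.0853 and 0.115, blocked 0.0202 and 0.0339). With IL-4 it had 149, 89 and 100 (0.5 h) and 112, 81 and 86 (2 h; -0.91 ± 0.29 and -1.16 ± 0.29, adjusted p = 0.0456 and 0.00773). These and the call at 1 h were lost without replicate 2 (0.194, 0.0509 and 0.0826 at 0.5, 2 and 1 h) or 3 (0.333, 0.132 and 0.231). At 4 h of IL-4 the change was -0.76 ± 0.29 (adjusted p = 0.0696, blocked 4.22e-05).

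Ch25h, which makes 25-hydroxycholesterol, an oxysterol that holds SREBPs back and activates LXR (chr19:34473783-34475148), had 1, 3 and 3 counts in untreated cells. LPS took it to 4, 7 and 8 at 0.5 h, 15, 18 and 18 (1 h), 6, 7 and 11 (2 h) and 34, 34 and 67 (4 h). IL-4 took it to 19, 35 and 44 (0.5 h) and 19, 16 and 20 (1 h), and by 4 h it had 2, 1 and 1. Thus IL-4 was higher first and LPS last: LPS minus IL-4 was -2.16 ± 0.40 at 0.5 h (adjusted p = 8.18e-05) and 4.25 ± 0.40 at 4 h (adjusted p = 1.93e-09). Against untreated the changes were 3.78 ± 0.38 at LPS 4 h (adjusted p = 3.28e-07) and 3.33 ± 0.43 at IL-4 0.5 h (adjusted p = 0.000105). Their sizes depend on the added 1, since the untreated samples were at 3 counts or less, and the change at LPS 0.5 h (1.16 ± 0.38, adjusted p = 0.0165) did not pass without replicate 2 (0.0981) or 3 (0.0751) or with equal totals.

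**Figure D5:**
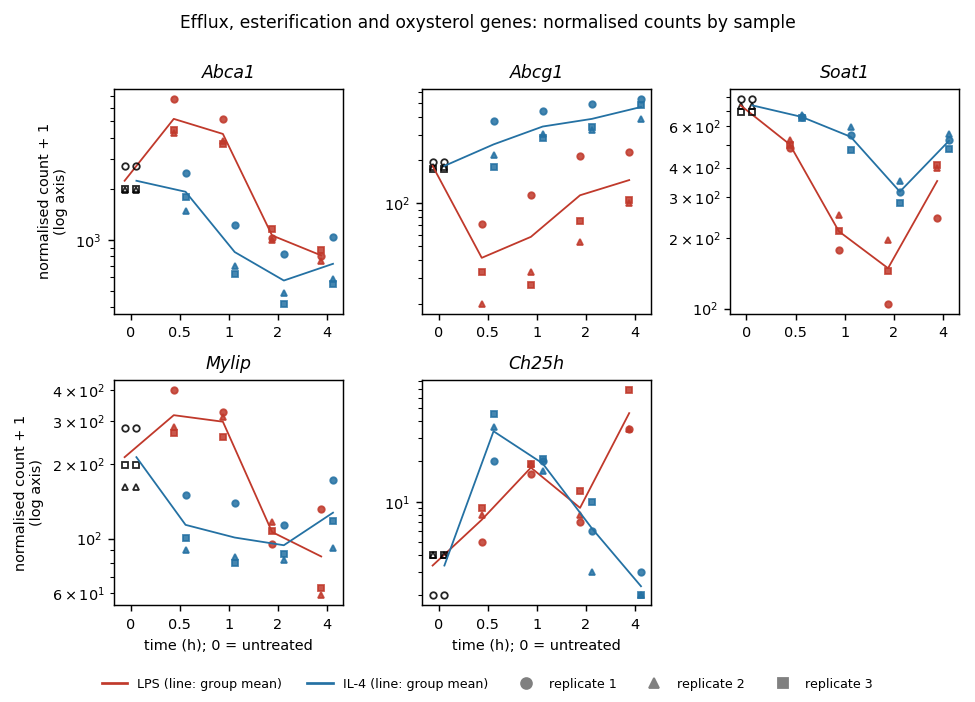
Normalised counts plus 1 (log axis) of the exporters Abca1 and Abcg1, of Soat1, Mylip and Ch25h in each sample against time, drawn as for the regulators. Abca1 rises and then falls with LPS while Abcg1 rises with IL-4, and Ch25h is highest at IL-4 0.5 h and LPS 4 h.

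Tested directly, the stimuli differed for 18 of 37 genes at 0.5 h (background 53.8%), 12 higher with LPS and 6 lower (18.0% and 35.8%). At 1 h the number was 23 (64.5%), with 8 higher and 15 lower (24.0% and 40.5%). At 2 h it was 24 (68.6%), with 8 and 16 (26.4% and 42.3%), and at 4 h 22 (68.0%), with 8 and 14 (26.1% and 41.9%). With equal totals these splits were 10 and 14, 5 and 16, 2 and 23, and 3 and 19, and those after median-of-ratios rescaling were 11 and 11 (1 h) and 10 and 11 (4 h). The lower count at 0.5 h was 11 under the replicate block and also without replicate 1. At 4 h all 8 tested fatty acid genes were lower with LPS, whereas 6 sterol genes were higher and 3 lower (Ebp, Dhcr7 and Tm7sf2). Acly and Tm7sf2 did not pass after median-of-ratios rescaling, nor did Tm7sf2 without replicate 2 or 3 (adjusted p = 0.159 and 0.114). Of the 6 higher genes, Hmgcs1 (1.17 ± 0.23, adjusted p = 7.8e-05) passed under each scaling and without each replicate, and Cyp51, Hsd17b7, Idi1, Mvd and Sc5d did not pass with equal totals. Without replicate 2 or 3 the higher counts were 5 at 1 h in both cases, 5 and 4 at 2 h, and 3 at 4 h in both cases, and without replicate 3 the lower count at 1 h was 9.

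A list of 40 further genes of the same pathways, 33 of them tested, covered other enzymes, LXR and RXR receptors, cholesterol transport and acyl-CoA and triglyceride synthesis. Over the LPS course 30 of 33 passed (90.9%, 11 higher and 19 lower) and over the IL-4 course 13 (39.4%, 5 and 8), beside 87.6% and 40.3% of all tested genes. The list's medians after LPS went from -0.55 at 0.5 h through -0.57 and -0.82 to -0.18 at 4 h. Among those with a mean of at least 50 in the higher group, the ones that fell most with LPS were Lpin1, a phosphatidate phosphatase, from 146.0 ± 24.8 (SD, n = 3) to 0.33 ± 0.58 at 4 h, and Rxra, the partner receptor of LXR, from 529.0 ± 158.5 to 15.0 ± 9.54. The change of Rxra was -5.16 ± 0.50 (adjusted p = 2.49e-07). Those that rose most were Acsl1, a long-chain acyl-CoA synthetase, from 117.3 ± 9.07 to 1250 ± 413.0 at 4 h (3.36 ± 0.19, adjusted p = 3.57e-10), and Dgat2, which completes triglycerides, from 0.33 ± 0.58 to 97.0 ± 24.9.

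With IL-4 those that fell most were Acsl3, another acyl-CoA synthetase, from 112.3 ± 26.8 to 30.3 ± 7.23 at 4 h (-1.86 ± 0.20, adjusted p = 1.27e-05), and Nceh1, which hydrolyses cholesteryl esters, from 1024 ± 99.6 to 297.7 ± 62.9 at 2 h (-1.80 ± 0.21, adjusted p = 2.15e-05). Npc1, which moves cholesterol out of lysosomes, rose with IL-4 from 452.7 ± 20.1 to 812.7 ± 61.2 at 1 h (0.84 ± 0.08, adjusted p = 3.67e-06) and fell with LPS (-1.85 at 2 h). Acsl4, which prefers polyunsaturated acids, rose from 305.0 ± 12.1 to 605.0 ± 63.0 at IL-4 0.5 h (0.98 ± 0.13, adjusted p = 0.000112). Dgat2 also passed over the IL-4 course, with a larger change (2.21 at 4 h, adjusted p = 0.0233 for the course) at a mean of only 5.33 ± 3.21.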

How the data were processed

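Chromatin-associated RNA libraries were made by SMART-seq2 with random primers, which does not mark strand. The authors aligned single-end reads to mm10 with TopHat2 2.1.1, removed multi-mapping and blacklisted reads (bedtools 2.29.2), counted reads per RefSeq GRCm38.p6 gene, and scaled samples on genes that did not vary. The deposited values are these scaled counts rounded to whole numbers (unit: score), so raw depth is unknown and no count model was used. Whether intronic reads were counted, and the strand setting, are not given in the sources used here.

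Genes with at least 10 in at least 3 of 27 samples were kept (13901 of 45070, 37 of the 38 genes of the set). After 1 was added, the log2 values went into linear models (R 4.3.3, limma 3.58.1; eBayes with trend, two-sided, Benjamini-Hochberg over all tested genes, threshold 0.05). Each course was fitted with the 3 untreated samples, with an F test over the 4 times, contrasts to untreated and a 4 h to 1 h contrast. LPS minus IL-4 was fitted over all 27 samples. Groups at 3 or less in every sample were treated as at the floor. The scripts were tested on simulated data.

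The genes, lists and tests were chosen with earlier results of these data known. Values were printed for the regulators and a fixed part of each class, with the 2 largest changes per class and stimulus among genes with a mean of at least 50 in the higher group, the rest being given by ranges and counts. Of the further pathway genes the 2 largest rises and falls per stimulus were named by the same limit. Samples with the same replicate number deviated together from their group means: over 6827 genes the correlations of all 108 pairs were 0.163 to 0.851 (median 0.464). For 84 of the 108 the own number correlated best: 36 of 36 for replicate 1, 31 of 36 for replicate 3 and 17 of 36 for replicate 2. The numbers thus held as pairs for replicate 1 and mostly for replicate 3, but were not shown to for replicate 2. The fit with the replicate as a block is given as the blocked p, and all other p-values are from fits without it. The other alternatives were an added 8 in place of 1, median-of-ratios rescaling, equal totals, no filter, a mean of at least 50, each replicate left out, and replicates 2 and 3 averaged. Promoters were RefSeq GRCm38.p6 and coordinates are 1-based GRCm38.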

Additional observations from a re-analysis of the deposited data

Results flagged for a closer look

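For 8 genes both stimuli gave a call against untreated at the same time but in opposite directions. Only genes whose difference between LPS and IL-4 also passed were listed, each at the time of its largest such difference. That difference came from 1 fit over all samples (limma, log2 scale, LPS minus IL-4). Passing it was thus a condition of the listing and adds no support. The share of all tested genes that meet these conditions was not computed, so the number 8 has no background beside it. Higher with LPS were Hmgcs1 at 0.5 h (1.91), Stard4 at 0.5 h (2.31) and Abca1 at 1 h (2.36). Lower with LPS were Abcg1 at 1 h (-2.84), Insig2 at 2 h (-1.22), Fasn at 2 h (-2.45), Acaca at 2 h (-1.20) and Scd2 at 4 h (-2.46). All 8 differences passed without each replicate in turn, in fits that share most samples with the one used for the listing. At least 1 of the calls against untreated was lost without replicate 2 or 3 for each gene except Fasn. The differences also passed under both other scalings, but some LPS calls against untreated did not. Those of Insig2 and Acaca at 2 h and Scd2 at 4 h were lost after median-of-ratios rescaling, and that of Abca1 at 1 h with equal totals. The cause of these differences was not tested.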

How the results depend on the processing

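Counts of genes of the set are given as higher and lower. No gene called at a single time changed sign under any alternative. The largest change over a course took the other sign, at another time, for Abca1 and Acaca (median-of-ratios rescaling), Cyp51, Mvd, Elovl5, Srebf1, Scap and Stard4 (equal totals) and Fads2 (an added 8) with LPS, and for Fdps (an added 8, or without replicate 3) and Nsdhl (without replicate 2) with IL-4. With equal totals the LPS course had 8 higher, LPS 0.5 h 15 lower, LPS 1 h 3 higher and 17 lower, LPS 2 h 2 higher, IL-4 4 h against 1 h 10 higher, and LPS against IL-4 14 lower at 0.5 h and 5, 2 and 3 higher at 1, 2 and 4 h. With a mean of at least 50, fewer genes of the set were tested: LPS course 8 and 8, 0.5 h 6 and 4, 1 h 4 lower, 2 h 4 and 6, 4 h 4 and 6, 4 h against 1 h 3 higher, IL-4 course 4 and 5, 0.5 h 0 and 3, 4 h 5 higher, 4 h against 1 h 1 and 0, and LPS against IL-4 3, 6 and 6 lower at 0.5, 1 and 2 h and 3 and 7 at 4 h. With replicates 2 and 3 averaged, LPS 0.5 h had 5 lower, 1 h 5 higher, 4 h against 1 h 5 higher, the IL-4 course 4 and 3, 0.5 h 1 lower, 1 h 1 and 2, 2 h 3 and 3, 4 h 3 higher, 4 h against 1 h 0 higher, and LPS against IL-4 5, 4 and 3 higher at 1, 2 and 4 h. With no filter IL-4 0.5 h had 3 lower and 4 h against 1 h 3 higher. The replicate block gave 2 higher at IL-4 0.5 h, 11 higher for IL-4 4 h against 1 h and 11 lower for LPS against IL-4 at 0.5 h; it ended no call, and among 74 single values (the largest change of each of 37 genes with each stimulus) it added 5.

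Leaving out 1 replicate in turn gave these ranges of higher and lower counts. LPS course 8 to 15 and 12 to 18, 0.5 h 7 to 13 and 5 to 13, 1 h 6 to 11 and 8 to 13, 2 h 5 to 9 and 10 to 14, 4 h 7 to 13 and 9 to 12, 4 h against 1 h 3 to 15 and 5 to 8. IL-4 course 3 to 12 and 2 to 12, 0.5 h 1 to 1 and 1 to 6, 1 h 1 to 3 and 2 to 6, 2 h 3 to 5 and 2 to 7, 4 h 3 to 11 and 1 to 6, 4 h against 1 h 0 to 8 and 1 to 1. LPS against IL-4 had 9 to 13 and 5 to 11 at 0.5 h, 5 to 11 and 9 to 15 at 1 h, 4 to 9 and 15 to 16 at 2 h, and 3 to 8 and 12 to 17 at 4 h. Of the 74 single values 3, 19 and 19 lost their call without replicates 1, 2 and 3, 21 with replicates 2 and 3 averaged, 2 with an added 8, 2 after median-of-ratios rescaling, 4 with equal totals and 7 with no filter. The cause was not tested beyond the smaller number of samples or genes that these settings leave.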
